A study of Mus musculus with 23 samples.

Results

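The genes of mitosis and of the G2 phase before it were followed in mouse lung RNA as a set of 55 named genes. They were found by symbol, through the GENCODE M21 annotation of the mouse genome, among the 41388 genes of the count table. All 55 were found, and all 55 passed the filter on low counts that left 17148 genes for testing. The tissue was lung of 23 male Balb/c mice, each giving 1 library; no age is stated in the labels used here. Exposure to clean air or to aerosolized lipopolysaccharide (LPS, a component of bacterial walls; 0.21 mg/ml) lasted 10 min and was repeated on 3 days. Each exposure was followed 1 h later by an intraperitoneal injection of saline or of human alpha1-antitrypsin (AAT, 4 mg/kg), the main plasma inhibitor of neutrophil elastase. The end point was 6 h after the final injection. The 5 groups were air (3 libraries), LPS without AAT (5), and LPS with native AAT (LPS+nAAT, 5), with oxidized AAT (LPS+oxAAT, 5) or with recombinant AAT (LPS+recAAT, 5). Libraries are named here by the mouse numbers of the labels, and each lung sample is a mixture of cell types. In such bulk RNA, fewer cells of a type and less RNA per cell cannot be told apart, and this holds for every value that follows.

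Entry into mitosis is driven by the kinase CDK1 bound to cyclin A or cyclin B. The spindle checkpoint holds cells before anaphase until kinetochores are attached, and the anaphase-promoting complex, a ubiquitin ligase activated by CDC20, then marks cyclin B and securin for destruction. The genes of this programme are silent in resting cells under a repressor called DREAM, which binds a promoter element called the cell cycle genes homology region (CHR), and are switched on in G2 by B-MYB with the MuvB core and by FOXM1. The factor NF-Y binds CCAAT boxes in many of the same promoters. The adult lung is a slowly dividing tissue, and these genes are expressed mainly in cycling cells.

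Many promoters of the set hold matches to the letters of these elements, and 6 are printed to show the arrangement and its exceptions. RefSeq promoter windows of GRCm38.p6, from 250 bases before to 50 bases after the start of transcription, were matched by symbol for 45 of the 55 genes. Both strands were searched. The CHR was spelled TTTGAA on the strand of the gene, which reads TTCAAA when it lies on the opposite strand. No other spelling was searched, so a promoter without a match is not shown to lack the element. The CCAAT box reads ATTGG when it lies on the opposite strand. The end bases of both motifs can be shared, and both were then counted. Positions count the first base after the start as 1 and the last base before it as -1. Ccnb2 (chr9:70421505-70421804, minus strand) had a CHR beginning at base 5 and a second at base -167, and 3 CCAAT boxes. Plk1 (chr7:122159185-122159484, plus strand) had a CHR at base 31 and 1 CCAAT box, and Cdc20 (chr4:118437294-118437593, minus strand) had a CHR at base -18 between 2 CCAAT boxes. Mki67 (chr7:135716330-135716629, minus strand) had its CHR elements further upstream, at bases -116 and -98, with 3 CCAAT boxes. Ccnb1 (chr13:100786437-100786736, minus strand) had 2 CCAAT boxes and no match to these CHR letters in this window, and Ncaph (chr2:127133905-127134204, minus strand) had neither motif. Capitals mark the CHR and CCAAT letters, and each line runs 5′ to 3′ on the strand of the gene.
Ccnb2: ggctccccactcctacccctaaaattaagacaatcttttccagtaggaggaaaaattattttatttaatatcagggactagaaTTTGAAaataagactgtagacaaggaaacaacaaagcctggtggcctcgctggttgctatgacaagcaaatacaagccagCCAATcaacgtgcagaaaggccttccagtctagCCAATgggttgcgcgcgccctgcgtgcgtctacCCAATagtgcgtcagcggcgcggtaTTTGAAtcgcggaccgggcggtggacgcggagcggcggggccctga
Plk1: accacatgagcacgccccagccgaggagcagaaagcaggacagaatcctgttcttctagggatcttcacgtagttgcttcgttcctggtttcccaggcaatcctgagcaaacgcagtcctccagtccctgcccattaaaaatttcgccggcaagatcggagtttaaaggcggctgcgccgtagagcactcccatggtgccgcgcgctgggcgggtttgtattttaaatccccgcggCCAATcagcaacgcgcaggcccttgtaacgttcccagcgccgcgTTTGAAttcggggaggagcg
Cdc20: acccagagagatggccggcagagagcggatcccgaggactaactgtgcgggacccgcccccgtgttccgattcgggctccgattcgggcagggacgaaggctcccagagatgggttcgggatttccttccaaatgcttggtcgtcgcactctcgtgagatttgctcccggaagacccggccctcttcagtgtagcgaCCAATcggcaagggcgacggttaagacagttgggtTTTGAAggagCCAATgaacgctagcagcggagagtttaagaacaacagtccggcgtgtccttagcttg
Mki67: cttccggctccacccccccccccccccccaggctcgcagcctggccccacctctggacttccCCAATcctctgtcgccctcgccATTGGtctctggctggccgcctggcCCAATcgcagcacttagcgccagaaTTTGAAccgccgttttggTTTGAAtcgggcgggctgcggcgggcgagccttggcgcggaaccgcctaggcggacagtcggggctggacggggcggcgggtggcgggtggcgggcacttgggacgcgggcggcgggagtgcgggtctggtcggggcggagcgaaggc
Ccnb1: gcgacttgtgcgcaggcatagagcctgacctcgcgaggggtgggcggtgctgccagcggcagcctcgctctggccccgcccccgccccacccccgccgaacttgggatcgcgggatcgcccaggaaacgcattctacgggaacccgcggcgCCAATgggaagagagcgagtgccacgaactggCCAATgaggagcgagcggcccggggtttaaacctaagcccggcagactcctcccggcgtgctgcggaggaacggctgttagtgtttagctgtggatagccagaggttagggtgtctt
Ncaph: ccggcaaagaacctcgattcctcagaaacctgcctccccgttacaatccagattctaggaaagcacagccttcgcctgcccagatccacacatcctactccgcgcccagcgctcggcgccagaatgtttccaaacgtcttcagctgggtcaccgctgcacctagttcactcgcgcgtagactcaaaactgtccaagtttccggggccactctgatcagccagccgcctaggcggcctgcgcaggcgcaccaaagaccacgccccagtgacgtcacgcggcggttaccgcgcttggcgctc

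In the whole window, a CHR was found in 33 of the 45 promoters (73.3%) and in 20.2% of all 27025 genes of the promoter table. A CCAAT box was found in 32 of the 45 (71.1%) and in 41.1% of all genes, and both motifs in 28 (62.2%) and in 7.97%. Within 50 bases either side of the start, a window chosen after the positions had been seen, the CHR was present in 30 of 45 (66.7%) against 5.72% of all genes. The CHR was densest just after the start: 16 of the 45 genes had one beginning at bases 1 to 25, against 1.54% of all genes. A CCAAT box began at bases -75 to -51 in 16 of the 45, against 8.21% of all genes, and at bases -25 to -1 in 15, against 4.77%. These are matches of letters, which show neither binding nor use of a site.

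**Figure D1:**
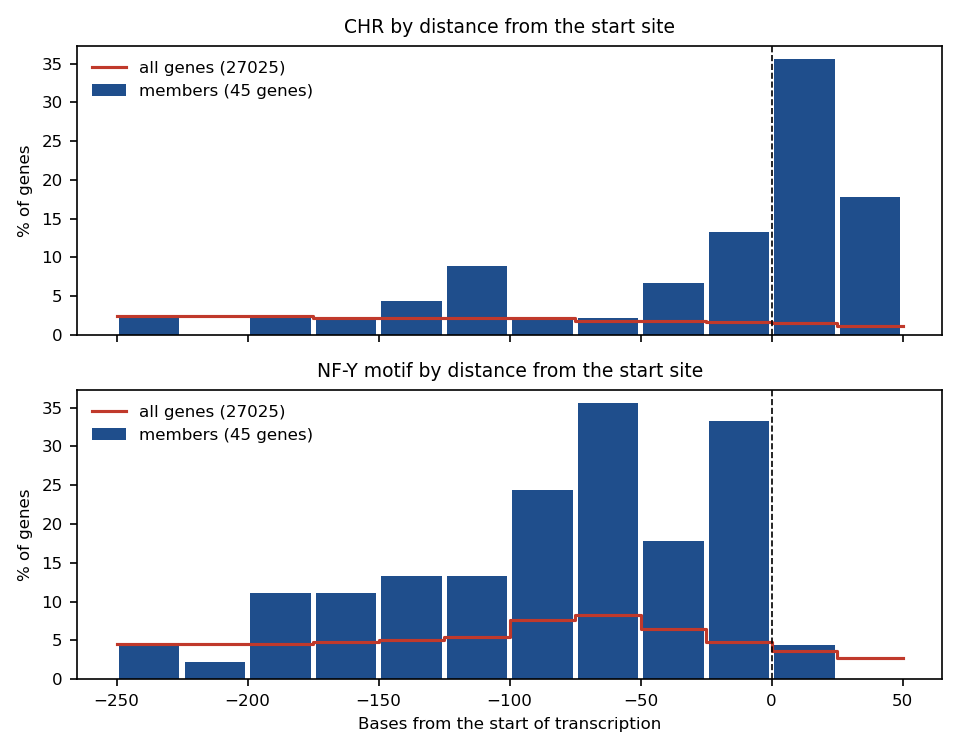
Share of promoters (y axis, percent) in which a motif begins in each 25-base bin (x axis, bases from the start of transcription), for the CHR and for the CCAAT box. Bars are the 45 mitosis and G2/M genes with a promoter in the RefSeq table and the line is all 27025 genes; the CHR bars are tallest at bases 1 to 25, where 16 of 45 genes have one.

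Libraries held 14.8 M to 47.9 M gene counts, with a median of 28.7 M, and counts of single genes of the set ran from 8 (Cdc25c) to 3093 (Smc4) per library. Defining lung markers were present in all libraries: the summed level of 7 alveolar type 2 genes was 25246 to 34332 CPM (gene counts per total of 1 M, scaled). The libraries fell into 2 sets by the count of mt-Nd6, the mitochondrial gene on the light strand, taken as a percentage of the count of mt-Nd5. It was 0.34% to 1.14% in 15 libraries, here the first set, and 3.39% to 4.50% in 8 libraries, the second set. The second set held all 5 LPS+recAAT libraries and LPS+oxAAT mice 5103, 5104 and 5105, and the labels name no batch. The 2 sets can therefore be compared under a single treatment in LPS+oxAAT alone. LPS+recAAT differs from air, LPS and LPS+nAAT in set as well as in treatment. Counts of called genes for LPS+oxAAT and LPS+recAAT against LPS and against air are given with and without a term for the set. Exons of 11 genes of the set overlap a gene on the other strand; the kit is stranded, but which strand setting was used in counting is not given in the sources used here. Such overlaps include Exosc9 with 12.5% of the exon length of Ccna2, Tnnc2 with 22.8% of Ube2c, Cdc23 with 29.3% of Kif20a and Rccd1 with 11.1% of Prc1, so reads in those stretches are uncertain.

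Per length of exon, in RPKM (CPM per kilobase), the levels of the 55 genes in the LPS lungs were low. Smc4, a core subunit of condensin, stood highest at 9.97 RPKM, followed by Cdc20 at 6.88, Incenp at 4.92 and Ccnb2 at 4.03. Cdc25c, a phosphatase that activates CDK1, was lowest at 0.179 RPKM. Smc4 also stood highest in air, at 11 RPKM, where Cdc25c was at 0.0857.

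As a summary, the mean log2 CPM over the 55 genes was taken in each library. It was 1.92, 1.72 and 1.71 in the 3 air lungs and 2.61, 2.50, 2.80, 2.49 and 2.83 in the 5 LPS lungs, and the groups did not overlap. With native AAT the score was 3.01, 3.49, 3.26, 3.21 and 3.12, with oxidized AAT 2.73, 2.78, 2.69, 2.82 and 3.03 and with recombinant AAT 2.95, 3.04, 3.12, 3.06 and 3.10. All LPS+nAAT and all LPS+recAAT libraries lay above all LPS libraries, while LPS+oxAAT overlapped LPS. Group means were 1.78 ± 0.12 (SD, n = 3) for air, 2.65 ± 0.16 (SD, n = 5) for LPS, 3.22 ± 0.18 for LPS+nAAT, 2.81 ± 0.13 for LPS+oxAAT and 3.05 ± 0.069 for LPS+recAAT. The mean was thus 0.87 higher in LPS than in air, and 0.57, 0.17 and 0.41 higher than LPS in the native, oxidized and recombinant groups. Within LPS+oxAAT, the 2 libraries of the first set scored 2.73 and 2.78 and the 3 of the second set averaged 2.85 (2.69 to 3.03). No test is attached to the score, since the genes were chosen with earlier results of these data known.

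**Figure D2:**
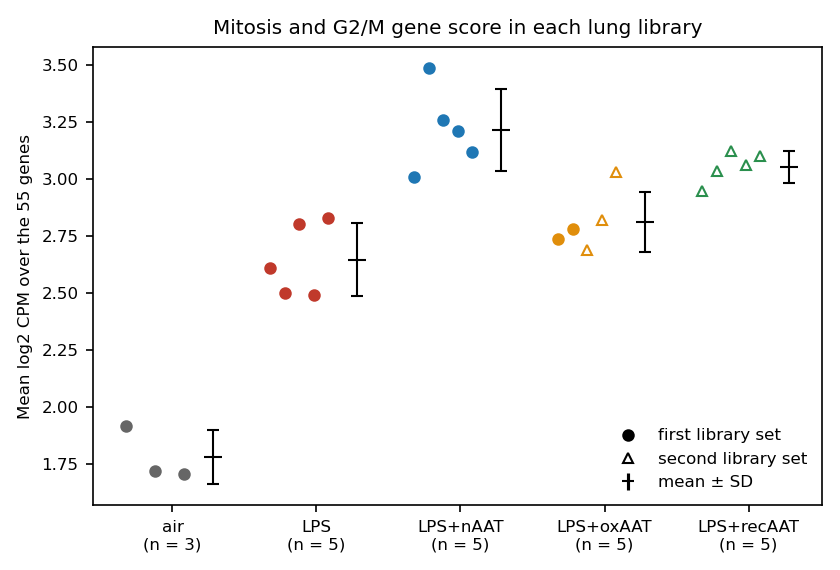
Mean log2 CPM of the 55 genes (y axis) in each of the 23 libraries, by group (x axis), with the mean and SD of each group; the marker shape gives the library set. Air lungs lie between 1.71 and 1.92, below all others, and the LPS+nAAT lungs between 3.01 and 3.49, above all LPS lungs.

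The comparison of LPS with air asked what repeated LPS inhalation did to these genes without any AAT. Of the 55 genes, 42 rose, none fell and 13 did not pass the test (adjusted p under 0.05 over all 17148 genes, edgeR quasi-likelihood F test). The backgrounds were 2.71% of all tested genes called higher and 1.68% called lower. The median log2 fold change was 0.92 over the 55 genes and -0.01 over all tested genes. In 41 of the 55, all 5 LPS lungs lay above all 3 air lungs, which 5.31% of all tested genes did in this direction. The largest rise was that of Ndc80 (log2 fold change 1.56) and the lowest estimate that of Smc4 (-0.14, adjusted p = 0.53).

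All 6 cyclins and regulators of entry rose with LPS. Ccna2 (ENSMUSG00000027715, chr3:36564865-36572150 on GRCm38), cyclin A2, was at 4.83, 3.66 and 3.33 CPM in air and at 5.93, 6.81, 9.6, 5.51 and 8.85 CPM with LPS, a log2 fold change of 0.90 (SE 0.18, adjusted p = 0.00279). Ccnb1, cyclin B1, was at 2.2, 1.59 and 1.66 CPM in air and at 4.33, 2.6, 4.41, 4.33 and 5.9 with LPS, a change of 1.25 (SE 0.22, adjusted p = 0.000602). The lowest LPS value of each, from mouse 1104 for Ccna2 and mouse 1102 for Ccnb1, was still above the highest air value. Cdk1 (ENSMUSG00000019942, chr10:69335146-69352938 on GRCm38), the kinase itself, was at 3.93, 3.44 and 4.72 CPM in air and at 9.22, 9.01, 9.75, 7.53 and 9.78 with LPS, a change of 1.17 (SE 0.14, adjusted p = 8.93e-06). Plk1 (ENSMUSG00000030867, chr7:122159439-122169873 on GRCm38), the polo-like kinase that promotes entry and spindle assembly, was at 2.42, 2.37 and 2.04 CPM and then 4.5, 6.81, 5.55, 4.64 and 5.72, a change of 1.25 (SE 0.17, adjusted p = 2.92e-05). The LPS lungs of Cdk1 and Plk1 were separate from air by a wide margin, with means 2.25 and 2.38 times the air level in the fit. Ccnb2, cyclin B2, changed by 1.23 and Cdc25c by 1.06 on the log2 scale.

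Among the transcription factors and kinases of the programme, Foxm1 and the kinase gene Melk rose while Mybl2 and Pbk did not pass the test. Foxm1 (ENSMUSG00000001517, chr6:128362967-128376146 on GRCm38), which activates G2/M genes, was at 9.34, 7.85 and 6.54 CPM in air and at 13.3, 10.9, 10.8, 12.2 and 14.6 with LPS, a change of 0.64 (SE 0.15, adjusted p = 0.00934). Mybl2, which encodes B-MYB, was at 3.28, 2.59 and 2.08 CPM in air and at 2.41, 3.65, 2.89, 3.59 and 3.16 with LPS, and its groups overlapped (0.24 (SE 0.22, adjusted p = 0.621)). Thus, of the 2 activators of the programme in the set, Foxm1 passed the test and Mybl2 did not, and no test compared them.

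In the spindle checkpoint, Bub1b and Ttk rose, and the estimates for Bub1 (0.25) and Mad2l1 (0.31) did not pass. Bub1b (ENSMUSG00000040084, chr2:118598211-118641591 on GRCm38), which encodes the checkpoint protein BUBR1, had the smallest adjusted p of the set: 6.03, 4.51 and 5.59 CPM in air and 13.7, 12.6, 15.6, 13.9 and 13.9 with LPS, a change of 1.38 (SE 0.14, adjusted p = 3.30e-07). Ttk, the checkpoint kinase MPS1, was at 1.23, 0.876 and 0.718 CPM in air and at 3.23, 1.6, 1.7, 1.78 and 2.03 with LPS, a change of 1.14 (SE 0.25, adjusted p = 0.00714). LPS mouse 1101 was well above the other 4 for Ttk. All 4 genes around the anaphase-promoting complex rose. Ube2c, the ubiquitin-conjugating enzyme of the complex, changed by 1.41 (SE 0.21, adjusted p = 8.95e-05) and Cdc20, its activator, by 1.0 (SE 0.14, adjusted p = 6.61e-05). Fbxo5, which encodes the inhibitor EMI1, went from 4.2 ± 0.476 CPM (SD, n = 3) to 6.2 ± 0.732 (SD, n = 5), the smallest change of the 4 at 0.56.

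All 4 genes of the chromosomal passenger complex, the kinase Aurkb and its partners, rose with LPS. Aurkb was at 2.85, 2.56 and 3.36 CPM in air and at 5.77, 4.25, 5.73, 3.8 and 5.65 with LPS, a change of 0.79 (SE 0.18, adjusted p = 0.0104). Birc5, survivin, was at 3.43, 1.91 and 2.0 CPM in air and at 7.63, 7.31, 5.37, 3.31 and 6.22 with LPS (1.28 (SE 0.25, adjusted p = 0.00263)), and LPS mouse 1104 fell below the highest air lung. Of the 8 centromere and kinetochore genes, 5 rose. Ndc80 (ENSMUSG00000024056, chr17:71496100-71526857 on GRCm38), which binds spindle microtubules at the kinetochore, was at 1.52, 0.973 and 0.945 CPM in air and at 2.9, 3.85, 3.34, 3.38 and 3.48 with LPS, a change of 1.56 (SE 0.24, adjusted p = 0.000145). Cenpe, a kinetochore motor, changed by 1.20 (SE 0.20, adjusted p = 0.0003). Cenpa, the histone H3 variant that marks centromeres, was at 8.24 ± 1.62 CPM in air (SD, n = 3) and 9.83 ± 0.775 with LPS (SD, n = 5) and did not pass (0.25, adjusted p = 0.406). Nuf2 (0.86) and Spc25 (0.78), which belong to the same complex as Ndc80, did not pass either.

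Of the 11 spindle genes 10 rose, and Plk4 was the exception. Tpx2, which activates Aurora A on the spindle, was at 4.8, 3.79 and 4.27 CPM in air and at 8.64, 7.06, 9.72, 9.03 and 9.95 with LPS, a change of 1.05 (SE 0.15, adjusted p = 6.15e-05). Kif11, the motor that pushes spindle poles apart, changed by 0.91 (SE 0.22, adjusted p = 0.016). Plk4, the kinase that starts centriole duplication, was at 8.37, 7.56 and 6.92 CPM in air and at 8.05, 4.81, 10.3, 7.29 and 9.31 with LPS, on both sides of the air values (0.070 (SE 0.21, adjusted p = 0.906)). In the central spindle and cytokinesis group, 4 of 7 rose, led by Kif20a (1.41) and Prc1 (1.03). Kif23, the motor of centralspindlin, changed by 0.80 (SE 0.15, adjusted p = 0.00193). Anln, the actin-binding scaffold of the contractile ring, was at 8.01, 7.43 and 7.52 CPM in air and at 7.49, 5.16, 13.5, 9.8 and 12.7 with LPS, and LPS mouse 1102 lay below all air lungs (0.35 (SE 0.22, adjusted p = 0.421)). Ect2, which activates RhoA for cytokinesis, had an estimate of 0.76 (SE 0.26, adjusted p = 0.109).

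Of the 7 chromosome structure genes 5 rose. Mki67 (ENSMUSG00000031004, chr7:135689784-135716361 on GRCm38), the proliferation marker Ki-67 that coats mitotic chromosomes, was at 14, 12.2 and 10.5 CPM in air and at 33.1, 30.9, 41, 27.2 and 37.1 with LPS, a change of 1.47 (SE 0.16, adjusted p = 2.17e-06). Top2a, topoisomerase II alpha, was at 11.9, 10.4 and 9.68 CPM in air and at 22.6, 19.4, 30.3, 22.8 and 27.5 with LPS, a change of 1.20 (SE 0.17, adjusted p = 5.89e-05). The condensin subunits divided: Ncapg (0.92), Ncapd2 (0.55) and Ncaph (0.41) rose, and the core ATPases Smc2 (0.26) and Smc4 (-0.14) did not pass. Smc4, the gene of highest level, was at 59.6, 58.4 and 54.2 CPM in air and at 47.1, 43.4, 53.6, 50.8 and 65 with LPS, with the LPS values on both sides of air.

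**Figure D3:**
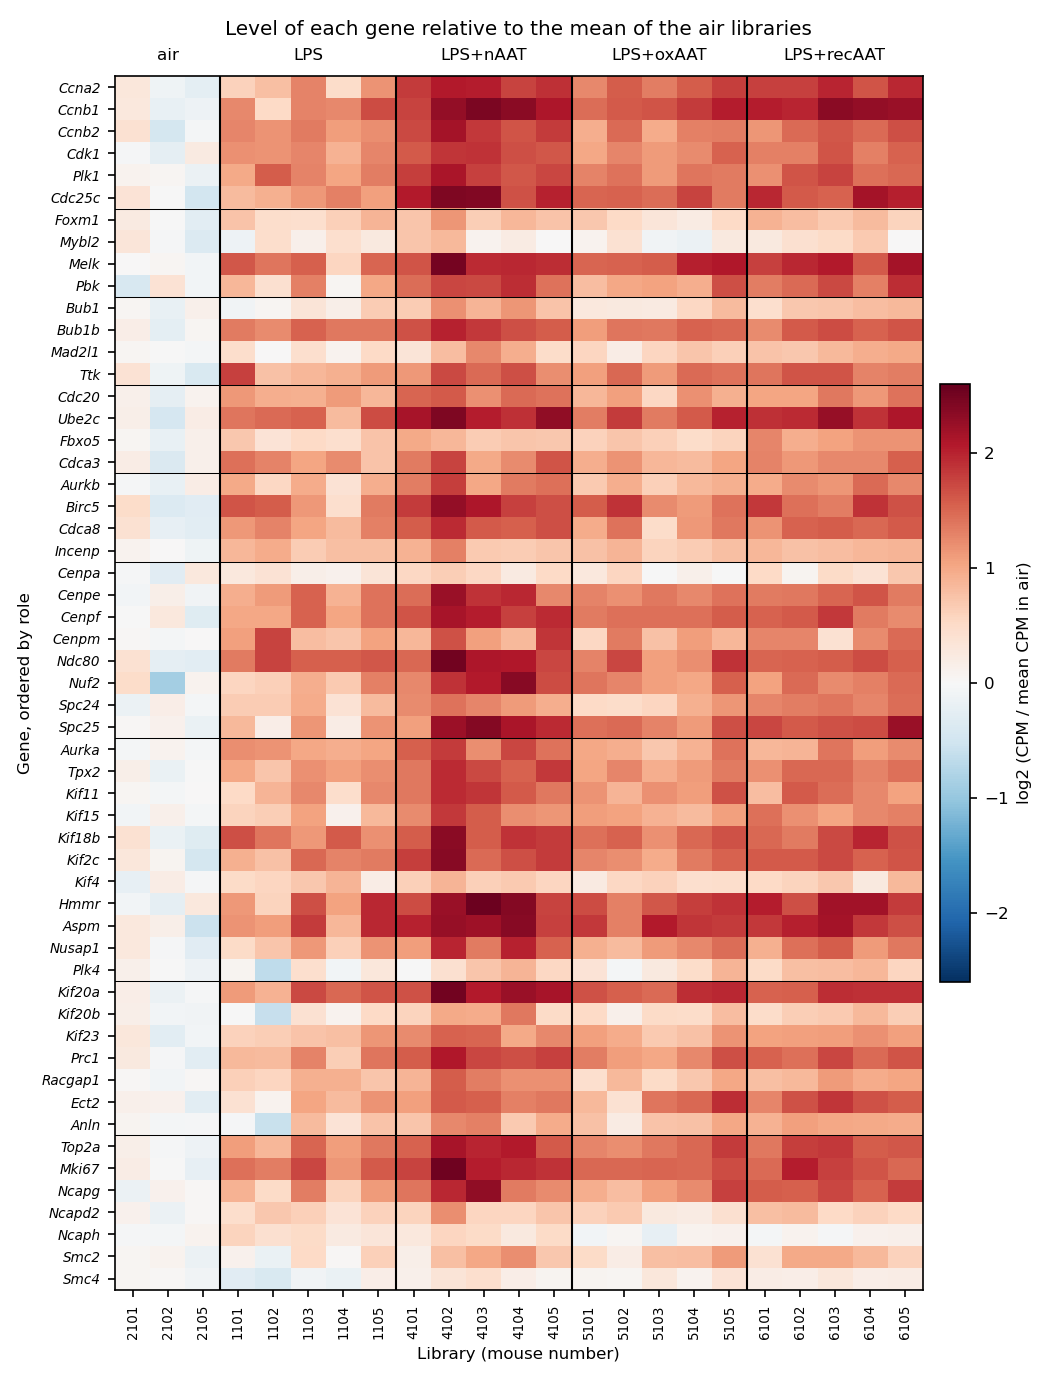
Log2 of CPM over the mean of the air lungs (color) for the 55 genes (rows, by role) in the 23 libraries (columns, by group). Most rows deepen from air to LPS and again to LPS+nAAT, whereas Smc4 and Ncaph stay pale.

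Other genes of the cell cycle, from lists that hold none of the 55, were read beside them. Of 78 further mitosis genes, 26 rose with LPS and none fell, with a median of 0.54. They included Iqgap3 (1.57 (SE 0.20, adjusted p = 8.93e-06)), Spag5 (1.15 (SE 0.15, adjusted p = 2.81e-05)), Knstrn (0.98) and Kifc1 (1.36), which act on the spindle or the cell cortex. Of 28 genes of DNA replication and the G1/S step, 10 rose, among them Rrm2, a subunit of ribonucleotide reductase (0.95 (SE 0.14, adjusted p = 7.55e-05)), the thymidine kinase Tk1 (1.0) and the replication factor Mcm10 (1.21). None of the 16 core subunits and partners of the anaphase-promoting complex was called, and their median was 0.032. Of 11 genes of the DREAM and MuvB complexes none rose and 1, Lin52, fell (-0.45 (SE 0.10, adjusted p = 0.00954)). Of 18 inhibitors and p53 targets, Cdkn1a (p21) rose by 0.60 and Cdkn1b (p27) had a change of -0.44. Myc rose by 1.17 (SE 0.15, adjusted p = 1.26e-05), alone among 7 growth-phase genes. Multiciliated cells use parts of the mitotic programme to build centrioles, and of 8 genes of that differentiation Mcidas (1.23) and Ccno (0.79) rose.

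Markers of other cell types were summed beside the LPS comparison. The 6 alveolar macrophage genes summed to 367 to 425 CPM in air and 432 to 547 with LPS, and 2 of 6 rose and 1 fell. The 6 monocyte and interstitial macrophage genes summed to 135 to 188 and 217 to 251 CPM, and 3 of 6 rose. The 6 neutrophil genes summed to 196 to 249 and 271 to 378 CPM with none called. The 7 neutrophil precursor genes summed to 4.11 to 56.3 and 26.8 to 91.8 CPM with 1 of the 4 tested genes called higher. Most of this sum was Ltf, with a mean of 47.3 CPM over all libraries, and Prtn3 was next at 1.37. Mpo and Elane were at no more than 0.244 and 0.143 CPM in any library and Prtn3 at no more than 2.09 CPM, so the sum mainly followed Ltf. The 6 erythroid precursor genes summed to no more than 11 CPM in any library, and Klf1 did not exceed 0.179 CPM. The 4 mesothelial genes summed to 195 to 216 CPM in air and 254 to 396 with LPS, with a median log2 fold change of 0.48 and 1 called higher. In the endothelial and the platelet lists 1 gene each was called higher and in the alveolar type 2 list 1 was called lower, and the summed levels of these 3 lists overlapped between air and LPS. The part of these cell types in the result was not tested. The count of 42 was 28 to 46 over all alternatives run, from 28 when only the 2 groups entered the fit to 46 after removal of a curve in GC content. Of all tested genes, 268 of 16472 were called higher in the fit of 2 groups and 477 of 17023 after the GC curve.

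The comparison of LPS+nAAT with LPS asked whether native AAT changed the lungs' response. Of the 55 genes 20 rose, none fell, and all 55 estimates were above 0, as were 8625 of all 17148 tested genes. The background was 0.449% of all tested genes called higher, 77 of 17148. The median log2 fold change was 0.59, and it was 0.0014 over all tested genes. In 22 genes all 5 LPS+nAAT lungs lay above all 5 LPS lungs, as in 1.99% of all tested genes. This comparison shares its LPS lungs with the comparison of LPS and air, so a low LPS lung raises the one estimate and lowers the other, and the values are given side by side without a measure of likeness.

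All 6 entry genes rose again, and this was the only role in which every gene was called. Ccna2 was at 13.8, 16.5, 16.1, 13.4 and 14.6 CPM with native AAT, all above the highest LPS lung at 9.6, a log2 fold change of 1.02 (SE 0.14, adjusted p = 0.00138). Ccnb1 was at 6.18, 8.91, 9.93, 9.27 and 7.77 CPM, a change of 0.95 (SE 0.17, adjusted p = 0.0101). Cdc25c, low in all groups, was at 0.749, 0.801, 0.924, 1.05 and 0.889 CPM with LPS and at 1.76, 2.26, 2.22, 1.33 and 1.68 with native AAT, a change of 1.07 (SE 0.20, adjusted p = 0.0148). The 3 genes came to about the same multiple of LPS, 2.03, 1.94 and 2.1. Cdk1 was at 12.1, 14.6, 14.8, 12.9 and 12.4 CPM, a change of 0.56 (SE 0.12, adjusted p = 0.027), and Plk1 at 7.88, 9.94, 7.84, 6.99 and 7.58 CPM, a change of 0.57 (SE 0.13, adjusted p = 0.044). Ccnb2 was at 6.39, 5.96, 6.77, 5.62 and 6.11 CPM with LPS and at 8.63, 11.8, 9.39, 8.22 and 9.33 with native AAT, a change of 0.62 (SE 0.15, adjusted p = 0.045). The groups of Cdk1, Plk1 and Ccnb2 did not overlap.

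None of the 4 transcription factors and kinases passed the test with native AAT. Foxm1 was at 13, 17.6, 12.3, 14.3 and 13.2 CPM and overlapped the LPS lungs, with an estimate of 0.19 (SE 0.12, adjusted p = 0.489), and Mybl2 had 0.19. Pbk (0.85, adjusted p = 0.0578) and Melk (0.64, adjusted p = 0.114) had larger estimates and groups that did not overlap. Bub1 was the checkpoint gene called, from 3.86 ± 0.819 to 6.24 ± 1.03 CPM (SD, n = 5), a change of 0.69 (SE 0.16, adjusted p = 0.0391). Bub1b was at 16.9, 21.6, 19.2, 17.1 and 16.1 CPM, all above the LPS lungs, but its 0.38 did not pass (adjusted p = 0.103). Ube2c rose, from 5.25 ± 1.08 to 8.92 ± 1.26 CPM (SD, n = 5) (0.77 (SE 0.16, adjusted p = 0.03)), while Cdc20 (0.44, adjusted p = 0.0749), Cdca3 (0.26) and Fbxo5 (0.23) did not pass.

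In the passenger complex Aurkb was called at the edge of the threshold (0.63 (SE 0.15, adjusted p = 0.0499)), and Birc5 (0.67), Cdca8 (0.56) and Incenp (0.064) were not. The kinetochore genes Spc25, Nuf2 and Cenpf rose. Spc25 had the largest estimate of the set: 2.15, 1.35, 2.65, 1.36 and 2.7 CPM with LPS and 2.48, 5.56, 6.24, 5.18 and 4.57 with native AAT (1.22 (SE 0.22, adjusted p = 0.0136)), and mouse 4101 lay within the LPS range. Ndc80, which had the largest change with LPS, was at 3.24, 6.55, 4.95, 4.85 and 3.79 CPM and did not pass (0.47, adjusted p = 0.232). Tpx2 was at 11.1, 16.5, 14.1, 12.4 and 15.4 CPM, all above LPS, a change of 0.64 (SE 0.12, adjusted p = 0.0148). Kif15 and Nusap1, which act on spindle microtubules, also rose, by 0.75 and 0.78. Kif11 just missed the threshold (0.74 (SE 0.18, adjusted p = 0.0527)) although its groups did not overlap.

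In cytokinesis, Prc1, which bundles the central spindle, rose from 10.2 ± 2.33 to 17.1 ± 2.46 CPM (SD, n = 5) (0.75 (SE 0.15, adjusted p = 0.0185)), and so did the kinesins Kif20a (0.74) and Kif20b (0.77). Top2a was at 30.8, 46.9, 42.3, 44.8 and 32.2 CPM, a change of 0.68 (SE 0.14, adjusted p = 0.0233). Mki67 was at 41.7, 70.3, 50.3, 47.8 and 45 CPM, a change of 0.59 (SE 0.13, adjusted p = 0.0367), with mouse 4102 far above the other 4. Both were above all LPS lungs in all 5 mice. No condensin subunit was called, and Ncaph had the lowest estimate of the set, 0.012 (95% interval -0.18 to 0.20).

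Of the 78 further mitosis genes 4 rose with native AAT, Spag5 (0.66 (SE 0.12, adjusted p = 0.0148)), Knstrn (0.57 (SE 0.11, adjusted p = 0.0148)), Ckap2l (0.65) and Depdc1a (1.06), and none fell. Rrm2 was the G1/S gene called, of 28 (0.70 (SE 0.11, adjusted p = 0.0053)). No gene of the anaphase-promoting complex core, the DREAM and MuvB complexes, the inhibitors, the growth-phase genes or the multiciliated genes was called. No marker of the 20 cell type lists was called. Summed alveolar macrophage markers were 553 to 812 CPM, above all LPS lungs, and neutrophil markers 238 to 685 CPM. Of the alveolar macrophage markers, Chil3 had the highest mean over all libraries, 288 CPM. Neutrophil precursor markers, mostly Ltf, summed to 17.4 to 115 CPM. Heart muscle markers summed to 115 to 439.7 CPM with LPS and 37 to 494 CPM with native AAT. Their part in the result was not tested.

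The number of genes called with native AAT depended on the fit more than the estimates did. With 20 genes in the fit of all 23 libraries, 1 was called when only the 2 groups were fitted (background 0.0434%), 2 with the first library set alone (background 0.116%), 6 with limma's voom with sample quality weights (background 0.146%) and 38 with DESeq2's Wald test (background 1.69%). Without LPS mouse 1101, 1102 or 1104 it was 5, 5 and 4, and without LPS+nAAT mouse 4102, 4103 or 4104 it was 7, 7 and 9. The median log2 fold change was 0.51 to 0.66 over the fits that left out 1 library of either group.

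**Figure D4:**
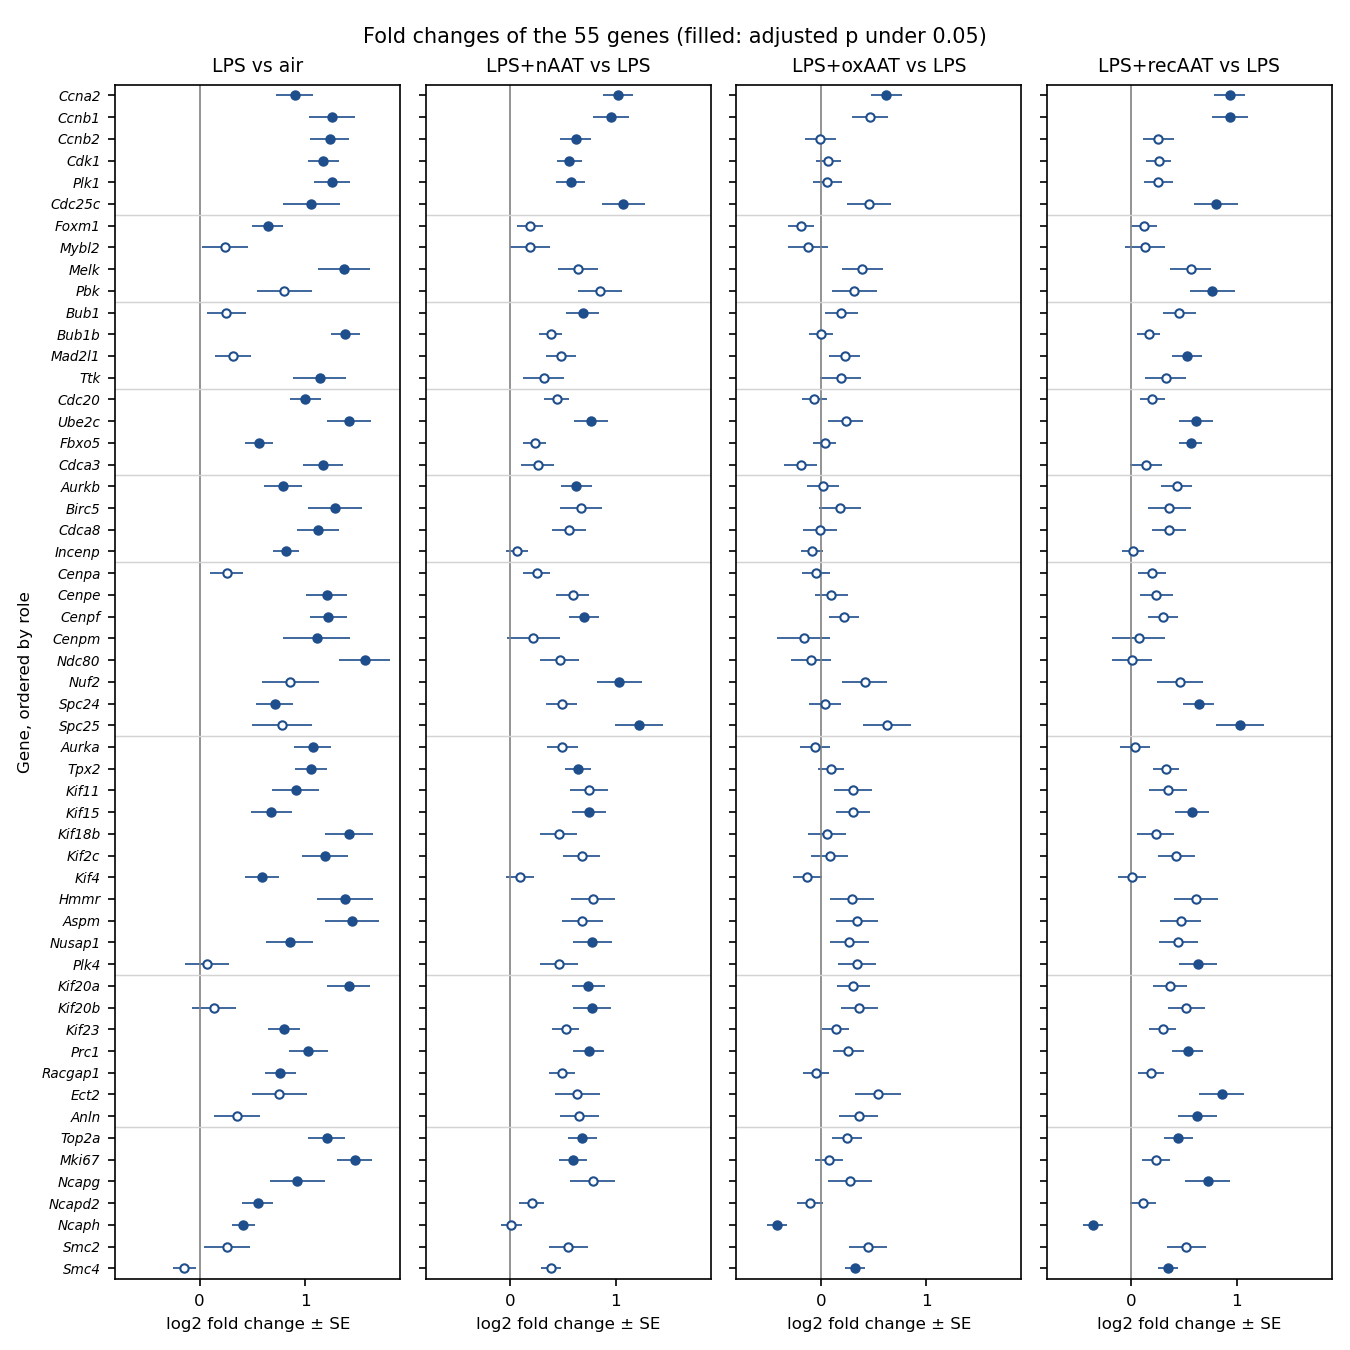
Log2 fold change with its standard error (x axis) of each of the 55 genes (y axis, by role) in 4 comparisons: LPS against air, and each AAT group against LPS. Filled points passed an adjusted p of 0.05: 42 with LPS, 20 with native AAT, 3 with oxidized AAT and 18 with recombinant AAT.

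With oxidized AAT 2 of the 55 genes rose and 1 fell against LPS. The backgrounds were 3.94% of tested genes called higher and 0.77% called lower, so the share of the set called higher was near that of all genes. The median was 0.18, and 40 estimates were above 0 and 15 below. Ccna2 was at 9.4, 11.7, 9.87, 11.7 and 13.7 CPM, a change of 0.62 (SE 0.15, adjusted p = 0.0157), and LPS+oxAAT mouse 5101 lay within the LPS range. Smc4 was at 60.3, 59.2, 70.4, 61.6 and 73.5 CPM, a change of 0.32 (SE 0.095, adjusted p = 0.0493). Ncaph, the kleisin subunit of condensin I, fell: 13.6, 12.3, 12.9, 10.8 and 11.4 CPM with LPS and 8.76, 9.55, 7.87, 9.75 and 9.86 with oxidized AAT, all below LPS (-0.41 (SE 0.10, adjusted p = 0.0156)). Cdk1 was at 8.08, 9.75, 8.69, 9.39 and 11.7 CPM with an estimate of 0.072 (95% interval -0.16 to 0.30), and Mki67 at 34.7, 34.4, 35.2, 34.6 and 39.5 CPM with 0.074 (95% interval -0.19 to 0.33). Both genes overlapped the LPS lungs.

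With the library set as a term, none of the 55 genes was called for oxidized AAT (0.0117% of all genes called higher and 0.0233% lower). The LPS+oxAAT estimates then rest on the first-set lungs of that group, mice 5101 and 5102, so fewer lungs carry them. Ccna2 then had 0.53 (adjusted p = 0.573), Smc4 0.20 and Ncaph -0.41 (adjusted p = 0.463). The 2 called higher became none without LPS mouse 1101, 1102 or 1104 or LPS+oxAAT mouse 5105, 1 without LPS mouse 1103 or LPS+oxAAT mouse 5103 or 5104, and 4 without LPS+oxAAT mouse 5102. Without mouse 5102, 1350 of all 17093 tested genes were called higher. Ncaph was lost without LPS mouse 1101 or LPS+oxAAT mouse 5103. Of the other lists, Depdc1a (0.95 (SE 0.25, adjusted p = 0.0284)) rose among the 78 mitosis genes and Ccne2, cyclin E2, among the 28 G1/S genes (1.03). Among the 18 inhibitors Cdkn1b (0.74 (SE 0.11, adjusted p = 0.000881)) and Trp53inp1 (0.78) rose and Sesn2 (-0.64) and Btg2 (-0.25) fell, and Myc fell (-0.62 (SE 0.12, adjusted p = 0.00601)). With the set term none of these 7 genes was called, with adjusted p from 0.21 (Sesn2) to 0.848 (Trp53inp1). No cell type marker was called, and neutrophil markers summed to 167 to 263 CPM, all below the LPS lungs. Alveolar macrophage markers summed to 402 to 598 CPM and overlapped the LPS lungs. The part of these cell types in the result was not tested.

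With recombinant AAT 17 of the 55 genes rose and Ncaph fell against LPS. The backgrounds were 6.47% called higher and 2.02% called lower. The median was 0.36, and 15 genes lay above LPS in all 5 lungs, as did 5.48% of all tested genes. Ccna2 was at 13.5, 13.5, 15.6, 12.2 and 15.3 CPM, a change of 0.93 (SE 0.15, adjusted p = 0.000665), and Ccnb1 at 7.52, 7.16, 9.28, 8.84 and 8.67 CPM, a change of 0.93 (SE 0.17, adjusted p = 0.00159). All 5 lungs of both genes were above all LPS lungs. Cdc25c rose too (0.80 (SE 0.20, adjusted p = 0.0147)), while Cdk1 (0.26), Plk1 (0.26) and Ccnb2 (0.26) did not pass. Fbxo5, the gene of the inhibitor EMI1, was at 6.88, 5.36, 5.99, 5.72 and 7.04 CPM with LPS and at 10.2, 8.11, 8.68, 9.38 and 9.44 with recombinant AAT, a change of 0.56 (SE 0.11, adjusted p = 0.00241). Ube2c rose by 0.61 (SE 0.16, adjusted p = 0.0193).

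Spc25 had the largest estimate with recombinant AAT, 1.03 (SE 0.23, adjusted p = 0.00557), at 3.98, 3.63, 3.78, 3.85 and 5.66 CPM, and Spc24, its partner in the Ndc80 complex, rose by 0.64 (SE 0.15, adjusted p = 0.00759). Ndc80 was at 3.25, 3.34, 3.41, 3.71 and 3.35 CPM with an estimate of 0.0067 (95% interval -0.36 to 0.37). Plk4 was at 10.7, 13, 13.3, 13.8 and 11.2 CPM, above all LPS lungs, a change of 0.63 (SE 0.18, adjusted p = 0.0295); in the cytokinesis group Ect2 was at 9.36, 12.4, 14.2, 12.3 and 11.7 CPM (0.85 (SE 0.22, adjusted p = 0.0143)) and Anln at 14.3, 15.9, 15.3, 15 and 14.9 CPM (0.62 (SE 0.19, adjusted p = 0.0364)). These 3 genes had not passed the test with LPS against air. Mad2l1 (0.53), Pbk (0.77), Prc1 (0.54), Kif15 (0.57), Top2a (0.45), Ncapg (0.72) and Smc4 (0.35) made up the rest of the 17. No gene of the passenger complex was called. Ncaph was at 8.85, 9.74, 8.96, 9.85 and 10.1 CPM, all below LPS, a change of -0.36 (SE 0.10, adjusted p = 0.019).

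All 5 LPS+recAAT lungs and no LPS lung belong to the second library set. With the set as a term, whose size is then read from the 5 LPS+oxAAT lungs alone, none of the 55 genes and no gene at all was called higher or lower (0.0% each). Ccna2 then had 0.78 (adjusted p = 0.583), Spc25 1.11 (adjusted p = 0.585) and Fbxo5 0.67 (adjusted p = 0.493), while Ect2 turned to -0.13 and Plk4 came to 0.24. After removal of a GC curve 6 were called higher, and 7, 8, 9, 10 and 11 without LPS mouse 1104, LPS mouse 1102, LPS+recAAT mouse 6103, LPS mouse 1101 and LPS+recAAT mouse 6104. Of all tested genes, 422 of 17023 were called higher after the GC curve. The fits without 1 library called 715, 709, 833, 773 and 803 higher. Ncaph was lost without LPS mouse 1101 or LPS+recAAT mouse 6103. Of the 78 further mitosis genes 13 rose and none fell, led by Depdc1a (1.29 (SE 0.25, adjusted p = 0.00229)), Esco2 (1.18 (SE 0.23, adjusted p = 0.00229)), G2e3 (0.78) and Cenpl (0.49). In the DREAM and MuvB list Lin9 (0.65) and Rbl1 (0.39) rose and E2f4 fell (-0.30). Of the 18 inhibitors 4 rose, among them Cdkn1b (0.84 (SE 0.11, adjusted p = 0.00028)) and Trp53inp1 (1.0), and 2 fell, among them Btg2 (-0.43); Ccne2 (1.49), Rrm2 (0.50) and Uhrf1 (0.38) rose among the G1/S genes, and Myc fell (-0.53). With the set term Cdkn1b had an adjusted p of 0.601 and Myc of 0.795. Of the cell type markers 1 platelet gene was called. Alveolar macrophage markers summed to 287 to 585 CPM with recombinant AAT, against 432 to 547 with LPS. The part of these cell types was not tested.

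The 3 preparations were given at the same dose and times and were compared in 3 pairs. Oxidized against native AAT, 8558 of all 17148 tested genes and all 55 of these genes had estimates below 0. The 55 were read in the same lungs and had a median of -0.45. The genes that passed the test were Tpx2 (-0.55 (SE 0.12, adjusted p = 0.0485)), Racgap1, the GTPase-activating subunit of centralspindlin (-0.54 (SE 0.12, adjusted p = 0.0495)), and Ncaph (-0.43 (SE 0.10, adjusted p = 0.0495)). The background was 0.128% of tested genes called lower, 22 in all. Tpx2 was at 8.72, 10.4, 8.21, 9.19 and 11 CPM with oxidized AAT, all below the LPS+nAAT lungs at 11.1 to 16.5. Ccnb2 (-0.62, 95% interval -0.91 to -0.34), Cdk1 (-0.49, -0.72 to -0.26) and Mki67 (-0.52, -0.78 to -0.26) also lay below native AAT in all 5 lungs, with adjusted p of 0.0627, 0.0637 and 0.0841. In all, 11 of the 55 and 227 of all 17148 tested genes lay below it in this way. No gene of the set was called here with the set term, and 0 to 7 when a single library was left out, 7 without LPS+oxAAT mouse 5102 and 0 without LPS+nAAT mouse 4102, 4103, 4104 or 4105 or LPS+oxAAT mouse 5101, 5103 or 5104. Without mouse 5102, 81 of all 17093 tested genes were called lower. With the set term the estimates for Tpx2, Racgap1 and Ncaph were -0.54, -0.60 and -0.43. On the oxidized side these rest on the first-set lungs, mice 5101 and 5102.

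Recombinant against native AAT, Ncaph was the gene called, lower (-0.37 (SE 0.10, adjusted p = 0.0425)), against a background of 0.723% called lower. The median of the 55 genes was -0.20. All 5 LPS+recAAT lungs and no LPS+nAAT lung belong to the second library set, so set and preparation cannot be told apart here. With the library set as a term, none of the 55 genes and no tested gene was called, and the median was -0.31. The estimates that follow are without that term. For Ccna2 the estimate was -0.086 (95% interval -0.36 to 0.19), for Top2a -0.24 (-0.51 to 0.035), for Cdk1 -0.30 (-0.53 to -0.071) and for Mki67 -0.36 (-0.62 to -0.10). Fbxo5 had the highest estimate, 0.33 (adjusted p = 0.122), and Nuf2 the lowest, -0.57 (adjusted p = 0.17). Ncaph was lost without any 1 of 8 of the 10 libraries. Recombinant against oxidized AAT, none of the 55 genes was called by edgeR (background 0.0%). In that fit 13 of the 55 had an unadjusted p under 0.05. DESeq2's Wald test and weighted voom each called 1 higher, out of 5 and 3 of all tested genes. All 5 LPS+recAAT lungs belong to the second library set, but of LPS+oxAAT only mice 5103, 5104 and 5105 do. With the set as a term, none of the 55 was called and their median was 0.21. The genes were read in the same lungs, so their signs are not separate observations. Without the set term, all 55 estimates, and 8810 of all 17148, were above 0, and the 55 had a median of 0.23. Fbxo5 (0.52 (SE 0.11, adjusted p = 0.19), 95% interval 0.31 to 0.74) and Spc24 (0.60 (SE 0.15, adjusted p = 0.581), 0.31 to 0.89) had the largest, and both lay above oxidized AAT in all 5 lungs. In all, 4 of the 55 and 67 of all 17148 tested genes lay above it in this way. The intervals are not adjusted for the number of genes or for picking the largest. For Cdk1 the interval was -0.040 to 0.42 and for Ccna2 0.034 to 0.59. A missed threshold in these pairs does not show that the preparations acted alike.

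Against air, the set was higher in all 3 AAT groups. With native AAT 51 of 55 genes were called higher (background 3.95%, median 1.65), with oxidized AAT 41 (background 2.72%, median 1.15) and with recombinant AAT 50 (background 4.21%, median 1.38), and none was called lower. These comparisons share the 3 air lungs. Ccnb1 had the largest change with native AAT, 2.21 (SE 0.22, adjusted p = 1.58e-07), and with recombinant AAT, 2.19 (SE 0.22, adjusted p = 2.31e-07), and Aspm, a spindle pole protein, with oxidized AAT, 1.79 (SE 0.25, adjusted p = 4.84e-05). Mybl2, Cenpa, Plk4 and Smc4 were the genes not called with native AAT. Ncaph was at air level with oxidized AAT (0.00047, 95% interval -0.22 to 0.22) and near it with recombinant AAT (0.052). With the set term the count was 35 for oxidized AAT (background 1.6%) and 33 for recombinant AAT (background 1.29%). It was 29 for oxidized AAT in the first library set alone (background 1.24%). In both of these fits the LPS+oxAAT estimates rest on mice 5101 and 5102.

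The order of group means was air, LPS, LPS+oxAAT, LPS+recAAT and LPS+nAAT from low to high in 33 of the 55 genes. In 14 more, LPS+oxAAT lay below LPS with the rest of the order alike. In 6 genes, Mad2l1, Ttk, Fbxo5, Spc24, Plk4 and Ect2, recombinant AAT gave the highest mean and native AAT the next. Ncaph was lowest with oxidized AAT and Smc4 lowest with LPS. Neighbours in these orders often did not differ beyond their spread, as the tests above show. LPS+nAAT mouse 4102 had the highest CPM of its group in 38 of the 55 genes, LPS+oxAAT mouse 5105 in 34, and air mouse 2101 in 36. In LPS, mouse 1105 was highest in 21 genes, and mice 1104 and 1102 were lowest in 21 and 20. The median coefficient of variation of a gene within a group was 14.1% in air, 18.6% with LPS, 18.2% with native, 15.9% with oxidized and 11.8% with recombinant AAT.

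**Figure D5:**
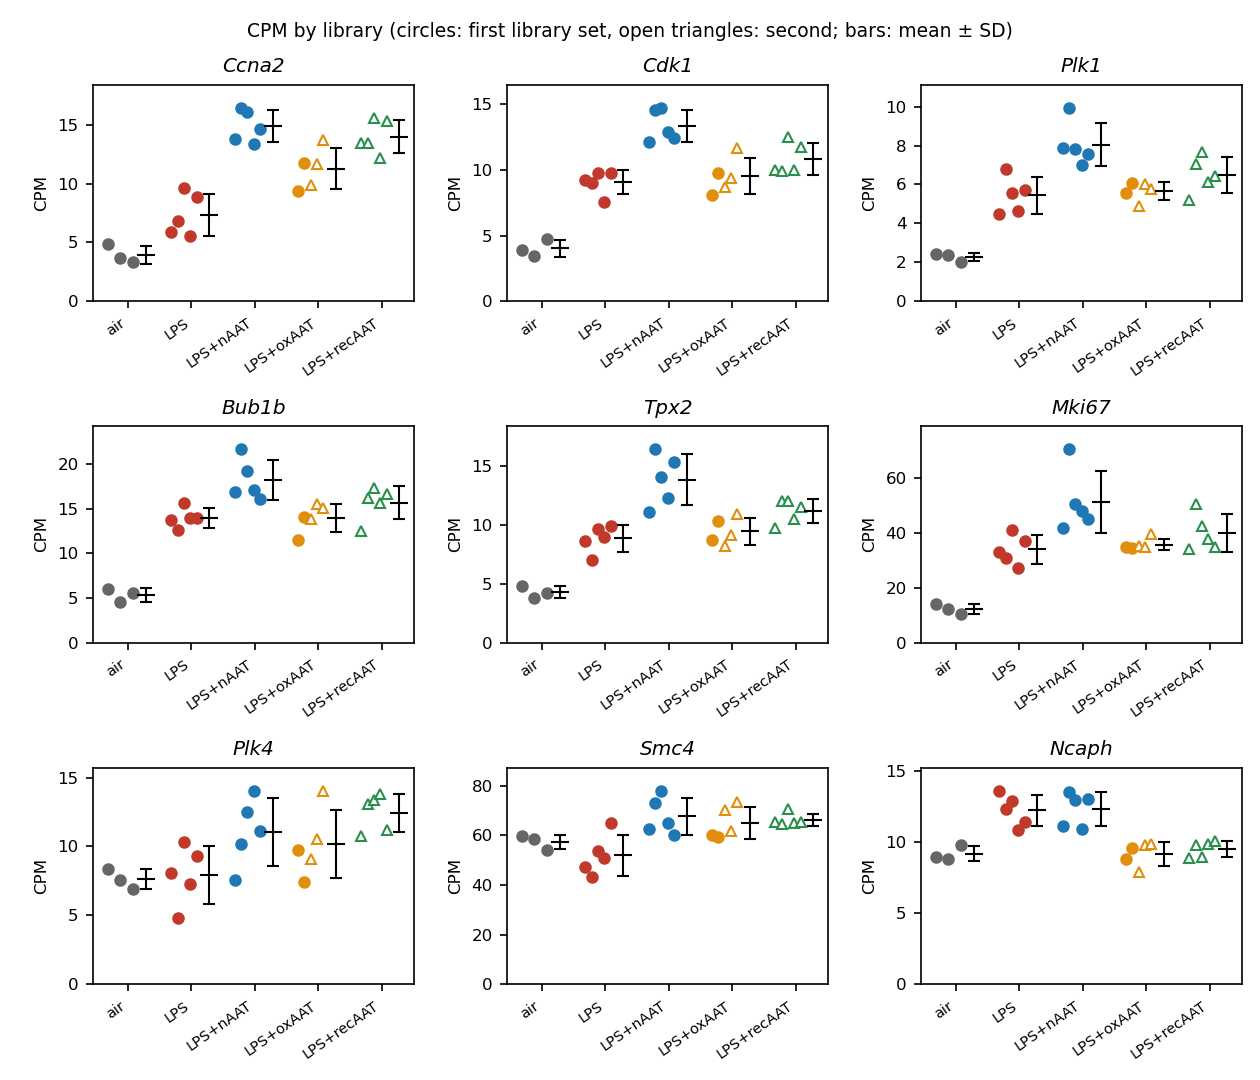
CPM (y axis, from 0) in each library by group (x axis), with the mean and SD, for Ccna2, Cdk1, Plk1, Bub1b, Tpx2, Mki67, Plk4, Smc4 and Ncaph. The first 6 lie lowest in air and highest with native AAT; Plk4 and Smc4 do not separate air from LPS, and Ncaph is lower with oxidized and recombinant AAT than with LPS.

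The genes with and without a CHR letter match in the promoter window were set side by side. With LPS against air, the 33 genes with a CHR had a median log2 fold change of 1.07 and 27 rose. The 12 without a match had a median of 0.86 and 7 rose, among them Ccnb1 and Melk, and the 10 with no promoter in the table had 0.81 and 8 rose. Other spellings of the CHR were not searched, so these 12 are not shown to lack it. With native AAT against LPS the medians were 0.57, 0.62 and 0.63, and 11, 4 and 5 rose. The ranges of the first 2 classes overlapped in both comparisons, from 0.13 to 1.56 and from 0.070 to 1.37 with LPS, and no test was made of the difference.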

How the data were processed

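RNA from 23 mouse lungs was sequenced after poly(A) selection with a stranded kit, per the labels' protocols. The deposited table holds raw read counts per Ensembl gene, not normalized. The submitters' processing notes name the build GRCm38, HTSeq 0.11.1 for counting, the aligner STAR 2.4.0.1, Trimmomatic in versions 0.36 and 0.38, and FastQC 0.11.8; which annotation and strand setting were used is not given in the sources used here. Its 5 summary lines entered neither library sizes nor tests and held per library 6.79% to 13.13% of reads on no feature and 1.12% to 1.39% ambiguous reads.

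Counts of all 23 libraries were fitted in 1 model with a mean per group (edgeR 4.0.16, R 4.3.3; TMM factors 0.978 to 1.028, filterByExpr by group, robust quasi-likelihood F test, two-sided, Benjamini-Hochberg over 17148 genes); calls were made at 0.05. SE was derived from the fold change and F. CPM are TMM-scaled, log2 CPM used a prior count of 2, and values are mean ± SD over mice. P-values rest on the variation among mice of a group. Alternatives were DESeq2 1.42.0, voom with sample quality weights of limma 3.58.1, other scalings and filters, a library-set term, a GC curve and leaving out each library.

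The genes, roles and lists were chosen with earlier results of these data known. By the rule for named genes, 28 genes chosen for their roles could be given with library values, other genes of the set were named as extremes or exceptions of a role or comparison, and up to 4 genes of smallest adjusted p were named in each other list.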

Additional observations from a re-analysis of the deposited data

Results flagged for a closer look

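Single lungs that stood apart from the other 4 of their group were looked for in 116 groups of CPM values, from 28 genes chosen for their roles and the score, by the gap to the nearest lung over the range of the group (Dixon's 95% value for 5 samples, 0.71). Chance alone marks about 1 in 20 such groups, and 4 were found. Ttk, the checkpoint kinase, was at 3.23 CPM in LPS mouse 1101, and the next LPS lung was at 2.03. Ncapd2, a condensin subunit, was at 31.7 CPM in LPS+nAAT mouse 4102, and the next at 22.7. Mki67 was at 39.5 CPM in LPS+oxAAT mouse 5105, against 35.2 in the next. Kif23 was at 15.4 CPM in LPS+recAAT mouse 6104, against 14.3.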

How the results depend on the processing

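The count of genes called with LPS against air was 28 to 46 over all alternatives, against 42, and kept its direction. Of all tested genes, 268 of 16472 were called higher at the count of 28 and 477 of 17023 at 46. For native AAT against LPS, 20 became 1 at an adjusted p of 0.01, 11 with no filter on low counts, 38 with DESeq2's Wald test, 6 with weighted voom, 1 with only the 2 groups compared and 2 with the first library set. It was 4 to 26 when 1 library was left out. All tested genes called higher were 5 at 0.01, 34 of 26445 with no filter, 11 at the count of 4 and 116 at 26. For oxidized AAT against LPS, the 2 called higher became 0 at an adjusted p of 0.01, 1 with library totals as scaling, 1 with no filter, 0 with only the 2 groups, 0 with the library set as a term, 0 with the first set and 1 after a GC curve was removed, and were 0 to 4 without 1 library. In that order, these settings called 136, 715, 571, 9, 2, 4 and 177 of all tested genes higher. The 1 called lower became 0 at 0.01, with only the 2 groups, with the set term and with the first set, and was 0 to 1 without 1 library. For recombinant AAT against LPS, the 17 called higher became 5 at 0.01, 0 with the set term and 6 after the GC curve, and were 7 to 23 without 1 library. All tested genes called higher were 496 at 0.01, 0 with the set term and 422 of 17023 after the GC curve. They were 715 at the count of 7 and 1522 at 23. The 1 called lower became 0 at 0.01, with no filter, with only the 2 groups and with the set term, and was 0 to 1 without 1 library. Against air, the 50 for recombinant AAT became 33 with the set term.

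For oxidized against native AAT, the 3 called lower became 0 at 0.01, with DESeq2 size factors, with no filter, with only the 2 groups, with the set term and with the first set, 1 with library totals, 12 with DESeq2's Wald test and 23 with voom, and were 0 to 7 without 1 library. Of all 17148 tested genes, 22 were called lower in the main fit, 91 with DESeq2's Wald test and 422 with voom, so the background rose too. For recombinant against native AAT, the 1 called lower became 0 at 0.01, with no filter, with only the 2 groups, with the set term and after the GC curve, 5 with voom, and 0 to 1 without 1 library. With voom 1 was called higher. Over all 17148 tested genes, voom called 676 lower and 849 higher. For recombinant against oxidized AAT, 1 was called higher with DESeq2's Wald test and 1 with voom, out of 5 and 3 of all 17148 tested genes. The estimate for Ect2, recombinant AAT against LPS, reversed from 0.85 to -0.13 with the set term. The cause was not tested in these cases, beyond the samples and genes that enter a fit. A fit of 2 groups or of the first set had fewer samples, and more genes, 26445, were tested with no filter. With the set term, the LPS+oxAAT estimates rest on the first-set lungs of that group, mice 5101 and 5102. Oxidized AAT against LPS had a median log2 fold change of 0.092 with that term and 0.091 with the first set alone. Over the 28 genes chosen for their roles, 5506 values under alternatives kept their direction and side of the threshold, 227 lost it, 90 gained it and 1 reversed.

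The last digit of the mouse numbers is shared between groups. Deviations from the group means of same-digit lungs correlated with a median r of 0.033 over 42 pairs, and of other lungs with -0.027 over 168, so the digits were not taken to pair mice. With the last digit as a replicate block, 27 genes were called with native AAT against LPS and 0 for oxidized against native AAT. Of all 17148 tested genes, 180 were called higher in the first comparison and 13 lower in the second. The promoter window of 50 bases either side of the start was added after the data were seen; a window of the last 150 bases before the start gave a CHR in 28.9% of the 45 promoters and 10.5% of all genes. Low counts limit the precision of Cdc25c, Cenpm and Ttk, whose lowest libraries held 8, 17 and 19 reads.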
